A study of Rattus norvegicus with 9 samples.

Results

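Fibroblast growth factors and their receptors were examined in prostates of rats with androgen-induced benign prostatic hyperplasia (BPH) with and without ghrelin. The set held 10 genes of 15168 with a symbol on the array, namely the ligands Fgf1, Fgf2, Fgf7, Fgf9, Fgf10 and Fgf18 and the receptors Fgfr1, Fgfr2, Fgfr3 and Fgfr4. They were chosen by name, and the 15 of 30367 probes whose RefSeq accession belongs to one of these genes were taken. Male Sprague Dawley rats, 6 weeks old at purchase, formed 3 groups with 3 arrays each. In the sham group, rats had a sham operation and received corn oil and oral vehicle. In the BPH group, rats were castrated and received dihydrotestosterone (3 mg/kg daily for 4 weeks) and oral vehicle. In the BPH+ghrelin group, rats were castrated, received the same dihydrotestosterone, and were given rat ghrelin by mouth (20 nmol/kg daily) during the last 2 weeks. This is the treatment as the methods and labels have it, and a legend of the same study names another route and dose. Both androgen-treated groups therefore share castration, and sham rats kept their own testes and androgens. RNA was taken from whole prostates, in which epithelium and stroma are mixed, so that fewer cells of a type and less RNA per cell cannot be told apart.

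FGF signalling is a main route by which prostate stroma acts on epithelium. Fibroblasts and smooth muscle cells secrete ligands such as Fgf7 and Fgf10, which bind the splice form of Fgfr2 that epithelial cells make, while Fgf1 and Fgf2 act on several receptors in stroma and epithelium. Ligands bind together with heparan sulfate chains, and the receptors, which are tyrosine kinases, pass the signal through the adaptor Frs2 to Ras and the kinase cascade below it, where Spry and Dusp proteins act as feedback inhibitors. Androgens are known to affect the supply of several of these ligands in the prostate, and FGF ligands are known growth factors of hyperplastic prostate tissue.

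Of the 10 genes, 6 were tested with 9 arrays, and none of these passed the test in any of the 3 comparisons. Fgf1 was fitted on 8 arrays and did not pass either, and Fgf2, Fgf18 and Fgfr4 were not well above background. Among the 6 genes, the differences with the lowest p-values were a higher Fgfr3 level in BPH than in sham, lower Fgf9 and Fgfr3 levels in BPH+ghrelin than in BPH, and a lower Fgf7 level in BPH+ghrelin than in sham, and all of them missed the threshold and were smaller with another background correction. The promoters of Fgf7, Fgf9 and Fgfr3 are shown because these 3 of the genes tested with 9 arrays had an unadjusted p under 0.05 in 1 comparison each. Each sequence holds the 250 bases before the annotated start, 5′ to 3′ on the strand of the gene, from RefSeq on assembly GRCr8. The Fgf7 promoter lies at chr3:133735377-133735626 on the plus strand, the Fgf9 promoter at chr15:36327108-36327357 on the plus strand, and the Fgfr3 promoter at chr14:81227210-81227459 on the minus strand. Capitals mark matches, on either strand, to the androgen receptor half-site AGAACA, the GC box GGGCGG, the TATA box TATAAA and the ETS core CCGGAA.
Fgf7: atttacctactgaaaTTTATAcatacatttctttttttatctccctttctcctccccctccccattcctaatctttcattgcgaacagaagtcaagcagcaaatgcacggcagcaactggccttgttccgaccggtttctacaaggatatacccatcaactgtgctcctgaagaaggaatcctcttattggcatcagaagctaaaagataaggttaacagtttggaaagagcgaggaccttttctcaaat
Fgf9: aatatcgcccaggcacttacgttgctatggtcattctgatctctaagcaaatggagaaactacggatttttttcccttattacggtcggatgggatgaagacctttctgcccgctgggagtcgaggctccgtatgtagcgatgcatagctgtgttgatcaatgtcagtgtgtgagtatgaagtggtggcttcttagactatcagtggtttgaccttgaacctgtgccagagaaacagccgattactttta
Fgfr3: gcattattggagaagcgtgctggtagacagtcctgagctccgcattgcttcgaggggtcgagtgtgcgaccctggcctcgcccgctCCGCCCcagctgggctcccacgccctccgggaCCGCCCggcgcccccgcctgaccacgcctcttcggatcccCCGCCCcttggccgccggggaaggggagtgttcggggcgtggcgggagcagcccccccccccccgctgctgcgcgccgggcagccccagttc

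The Fgf7 window held a TATA box match as TTTATA, which begins 235 bases before the start, and no match to the other letters searched. The Fgfr3 window held 3 GC boxes as CCGCCC, beginning 164, 132 and 92 bases before the start. The Fgf9 window held none of the 4 motifs. The GC content was 41.6% for Fgf7, 46.0% for Fgf9 and 74.4% for Fgfr3, with a median of 51.2% over all 33469 promoters. Of all promoters, 17.5% held AGAACA, 30.5% a GC box, 12.9% a TATA box and 12.6% an ETS core in the same window. Promoters of 9 of the 10 genes were matched, and 1 of them held AGAACA (Fgf2), 4 held a GC box (Fgf18, Fgfr2, Fgfr3 and Fgfr4), 1 a TATA box (Fgf7) and 0 an ETS core.

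Arrays differed within groups. Sham replicate 2 had the lowest raw signal (75th percentile of 327, against up to 1065 in BPH replicate 1) and the lowest share of probes well above background (61.4%, against 69.5% to 75.05% on the other arrays). In each group, a particular array lay between the other 2 in most probes, namely sham replicate 3 (76.9% of probes), BPH replicate 2 (71.7%) and BPH+ghrelin replicate 2 (70.3%), where arrays that lay there equally often would each give 33.3%. Whether the arrays of a group are independent was not tested, and p-values would be too small if they are not. When these 3 arrays were left out, an alternative added after the data had been seen, limma called 3, 0 and 2 genes in BPH against sham, BPH+ghrelin against BPH and BPH+ghrelin against sham, with 1182, 831 and 1338 genes at an unadjusted p under 0.05. The study describes the samples of a group as prostates of separate rats, while the labels give only sample numbers, and p-values measure the spread between these arrays. The 7 prostate defining markers were well above background on all 9 arrays, and their summed linear signal was 172427 to 184539 in sham, 37993 to 57989 in BPH and 44729.9 to 55526.6 in BPH+ghrelin. Markers of seminal vesicle and coagulating gland (5 of 8 on the array) summed to 90189 to 157603 in sham, 713 to 28272 in BPH and 545 to 3880 in BPH+ghrelin, and their part in the FGF values was not tested.

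Levels are given as log2 of the quantile-normalized signal, in the order of replicates 1, 2 and 3, and levels of different probes cannot be set against each other. Fgf2, the basic fibroblast growth factor, was not well above background on any of the 9 arrays (levels of 1.44 to 1.96). The same held for Fgf18 (0.93 to 2.67) and for Fgfr4 (0.56 to 2.78). No fold change is given for these 3 genes. The probe of Fgf1 was well above background on the 8 arrays with a usable spot, and it stayed out of the fit with 9 arrays because the scanner software marked the spot on sham replicate 3 as an outlier. The other 6 genes, Fgf7, Fgf9, Fgf10, Fgfr1, Fgfr2 and Fgfr3, were well above background on all 9 arrays with the probe that represents them, and were tested in each comparison.

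**Figure D1:**
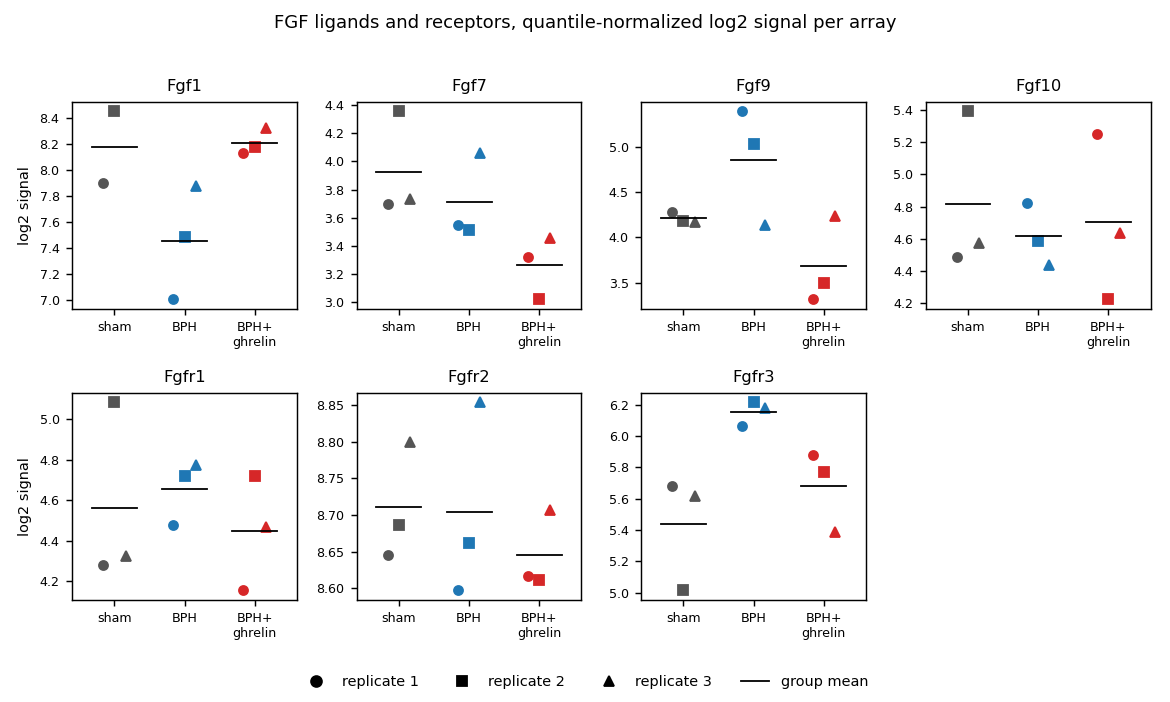
Quantile-normalized log2 signal (vertical axes, which differ between panels and do not start at 0) of the 7 FGF genes above background, for each array of sham, BPH and BPH+ghrelin. Symbols mark replicates and lines the group means, and sham replicate 3 is missing for Fgf1. The 3 BPH arrays of Fgfr3 (6.06 to 6.21) lie above the sham (5.01 to 5.68) and BPH+ghrelin (5.39 to 5.88) arrays, whereas Fgf10 arrays overlap in all groups.

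Among ligands of epithelial Fgfr2, Fgf7 (keratinocyte growth factor) had levels of 3.70, 4.36 and 3.73 in sham, 3.55, 3.51 and 4.06 in BPH, and 3.32, 3.02 and 3.46 in BPH+ghrelin. The BPH+ghrelin arrays lay below all arrays of both other groups, while sham and BPH overlapped. Against sham, Fgf7 was 1.58-fold lower in BPH+ghrelin (log2 fold change -0.66, SE 0.23, 95% confidence interval -1.20 to -0.13, unadjusted p = 0.0216, adjusted p = 0.134 in limma). With the normexp background correction, which adds an offset to all signals, this value was -0.071 (adjusted p = 0.619). Against BPH, Fgf7 was 1.36-fold lower (-0.44, SE 0.24, adjusted p = 0.314 in limma), and BPH against sham gave -0.22 (SE 0.24, adjusted p = 0.566). With an array left out in turn, these values ranged from -0.54 to -0.26 and from -0.39 to -0.0065. That of BPH+ghrelin against sham ranged from -0.78 to -0.45. All levels of Fgf7 were close to the background limit, which was at a log2 level of 2.39 to 3.75 depending on the array.

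Fgf10, which is required for growth of the prostate buds during development, showed no such order. Its levels were 4.48, 5.39 and 4.57 in sham, 4.82, 4.59 and 4.44 in BPH, and 5.25, 4.22 and 4.64 in BPH+ghrelin. All groups overlapped, and the log2 fold changes were -0.20 (SE 0.32) for BPH against sham, 0.09 (SE 0.32) for BPH+ghrelin against BPH and -0.11 (SE 0.32) for BPH+ghrelin against sham. The adjusted p-values in limma were 0.705, 0.895 and 0.870. The confidence interval of BPH+ghrelin against BPH, -0.64 to 0.82, leaves room for a change up to 1.76-fold upward and to 0.643-fold downward. The direction turned in each comparison when an array was left out. For BPH against sham this was sham replicate 2 (0.09), for BPH+ghrelin against BPH it was BPH+ghrelin replicate 1 (-0.19), and for BPH+ghrelin against sham it was sham replicate 2 (0.18) or BPH+ghrelin replicate 2 (0.13).

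Fgf9, a ligand that acts on Fgfr3 and on the mesenchymal forms of the other receptors, had the lowest adjusted p of the 6 genes in BPH+ghrelin against BPH. Its levels were 4.28, 4.18 and 4.17 in sham, 5.39, 5.02 and 4.14 in BPH, and 3.32, 3.49 and 4.24 in BPH+ghrelin. Replicates 1 and 2 of BPH were the highest and replicates 1 and 2 of BPH+ghrelin the lowest of all arrays, whereas replicate 3 of both groups was near the sham level, so that both groups overlapped. With ghrelin, Fgf9 was 2.24-fold below its BPH level (log2 fold change -1.17, SE 0.34, 95% confidence interval -1.95 to -0.39, unadjusted p = 0.00860, adjusted p = 0.119 in limma). With normexp it was -0.22 (adjusted p = 0.181). Without BPH replicate 3, the difference was -1.51 with an adjusted p of 0.0475 in limma, and over all arrays left out in turn it lay between -1.51 and -0.89 (adjusted p = 0.0475 to 0.354). BPH against sham gave 0.64 (SE 0.34, adjusted p = 0.262) and BPH+ghrelin against sham -0.53 (SE 0.34, adjusted p = 0.392).

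Fgf1, the acidic fibroblast growth factor that binds all FGF receptors, differed from Fgf9 in the sign of both comparisons with BPH. Its levels were 7.90 and 8.45 in sham, 7.01, 7.48 and 7.88 in BPH, and 8.13, 8.18 and 8.32 in BPH+ghrelin. The 3 BPH arrays were the lowest of the 8 arrays, and BPH replicate 3 was only slightly below sham replicate 1. In a fit to these 8 arrays, added after the data had been seen, BPH against sham gave a log2 fold change of -0.72 (SE 0.28, unadjusted p = 0.0354, adjusted p = 0.162 in limma). BPH+ghrelin against BPH gave 0.76 (SE 0.25, unadjusted p = 0.0184, adjusted p = 0.159), and BPH+ghrelin against sham gave 0.04 (SE 0.28, adjusted p = 0.954). With the marked spot of sham replicate 3 kept (9.04), the values were -1.01, 0.75 and -0.25 with adjusted p-values of 0.0974, 0.213 and 0.669 in limma.

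Of the receptors, Fgfr3, which epithelial cells express and which Fgf1 and Fgf9 activate, had levels of 5.68, 5.01 and 5.62 in sham, 6.06, 6.21 and 6.18 in BPH, and 5.88, 5.77 and 5.39 in BPH+ghrelin. The BPH arrays lay above all arrays of both other groups, and sham and BPH+ghrelin overlapped. In BPH, Fgfr3 was 1.64-fold higher than in sham (log2 fold change 0.71, SE 0.21, 95% confidence interval 0.24 to 1.19, unadjusted p = 0.00847, adjusted p = 0.0869 in limma), and with normexp 0.30 (adjusted p = 0.0883). In BPH+ghrelin it was 1.39-fold lower than in BPH (-0.47, SE 0.21, unadjusted p = 0.0520, adjusted p = 0.241), and against sham it differed by 0.24 (SE 0.21, adjusted p = 0.529). Without sham replicate 1, the value for BPH against sham was 0.84 with an adjusted p of 0.0450 in limma, and the range over all arrays left out was 0.50 to 0.84 (adjusted p = 0.0450 to 0.256). The second probe of Fgfr3 was well above background on 5 of 9 arrays, with levels of 2.97, 0.59 and 2.46 in sham, 3.44, 3.08 and 2.95 in BPH, and 2.90, 2.74 and 2.32 in BPH+ghrelin. It gave 1.15 (SE 0.54, adjusted p = 0.214) for BPH against sham and -0.50 (SE 0.54, adjusted p = 0.621) for BPH+ghrelin against BPH.

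**Figure D2:**
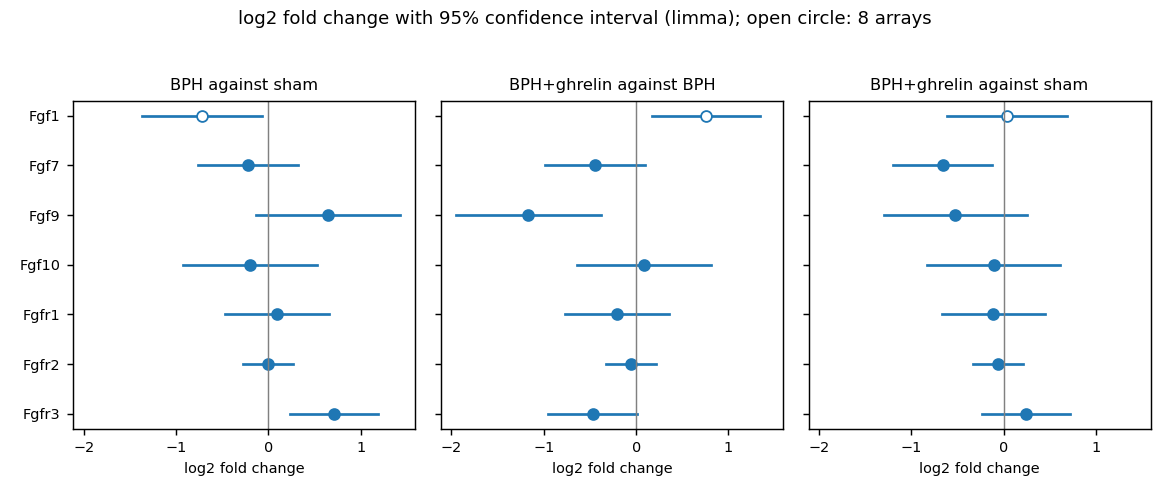
Log2 fold change (horizontal axes) of each FGF gene in the 3 comparisons, with points for the estimate and lines for the 95% confidence interval from limma. The open circle marks Fgf1, which was fitted on 8 arrays, and 5 intervals do not reach 0, those of Fgfr3 (0.24 to 1.19) and Fgf1 (-1.37 to -0.065) in BPH against sham, of Fgf9 (-1.95 to -0.39) and Fgf1 (0.17 to 1.34) in BPH+ghrelin against BPH, and of Fgf7 (-1.20 to -0.13) in BPH+ghrelin against sham, although none passed the adjusted threshold.

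Fgfr1, the main FGF receptor of stromal cells, did not differ beyond the spread between arrays in any comparison. It had 2 probes, and the one with the higher mean over all arrays by the rule used had levels of 4.28, 5.08 and 4.32 in sham, 4.47, 4.72 and 4.77 in BPH, and 4.15, 4.72 and 4.46 in BPH+ghrelin. All groups overlapped, and sham replicate 2 was the highest array. The log2 fold changes were 0.09 (SE 0.24, adjusted p = 0.825) for BPH against sham, -0.21 (SE 0.24, adjusted p = 0.648) for BPH+ghrelin against BPH and -0.12 (SE 0.24, adjusted p = 0.817) for BPH+ghrelin against sham. The value for BPH against sham turned to -0.06 with scaling to the 75th percentile and to -0.37 with the other probe. That other probe stood at 6.53 on sham replicate 2 and between 3.83 and 4.57 on the 8 other arrays.

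Fgfr2, the epithelial receptor of Fgf7 and Fgf10, had 4 probes, which did not behave alike. The probe with the highest mean (A_64_P113700) had levels of 8.64, 8.69 and 8.80 in sham, 8.60, 8.66 and 8.85 in BPH, and 8.62, 8.61 and 8.71 in BPH+ghrelin. On this probe all groups overlapped, with log2 fold changes of -0.01 (SE 0.12, 95% confidence interval -0.28 to 0.26, adjusted p = 0.979) for BPH against sham, -0.06 (SE 0.12, adjusted p = 0.803) for BPH+ghrelin against BPH and -0.07 (SE 0.12, adjusted p = 0.782) for BPH+ghrelin against sham. The interval of BPH against sham excludes changes beyond 1.20-fold up or 0.826-fold down for this probe.

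The other 3 probes of Fgfr2 showed no overlap between BPH+ghrelin and BPH, as did 39.2% of all genes, and they differed in direction. A_43_P10225 stood at 8.83, 8.74 and 8.66 in BPH and at 8.46, 8.42 and 8.15 in BPH+ghrelin (log2 fold change -0.40, SE 0.23, adjusted p = 0.351 in limma). A_64_P064028 stood at 4.30, 4.16 and 3.97 in BPH and at 3.37, 3.51 and 2.43 in BPH+ghrelin (-1.04, SE 0.35, unadjusted p = 0.0179, adjusted p = 0.157). In BPH+ghrelin only 2 of 3 arrays measured it above background, and the level of 2.43 lies under the limit of that array (2.97), so that the size of this difference is uncertain. A_44_P454429 stood at 3.73, 3.41 and 3.50 in BPH and at 4.44, 4.34 and 3.83 in BPH+ghrelin (0.65, SE 0.26, unadjusted p = 0.0350, adjusted p = 0.204). Thus 2 of these probes were lower and 1 was higher in BPH+ghrelin, and none passed the adjusted threshold. Which exons the probes lie in is not given in the sources used here, so the probes cannot be assigned to a splice form.

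**Figure D3:**
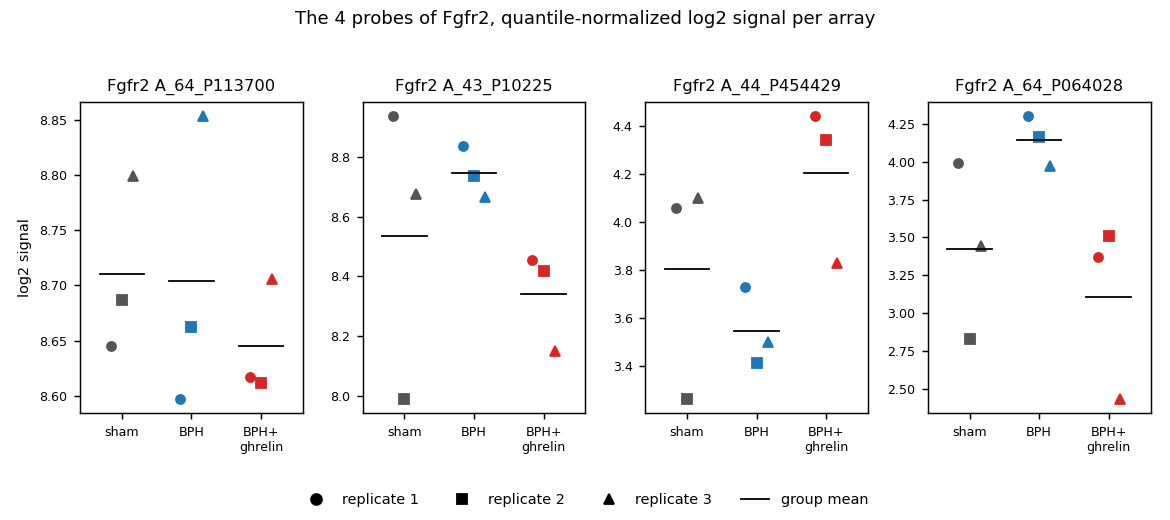
Quantile-normalized log2 signal (vertical axes, which differ between panels and do not start at 0) of the 4 Fgfr2 probes on each array, with symbols for replicates and lines for group means. A_64_P113700 overlaps in all groups, A_43_P10225 and A_64_P064028 are lower in BPH+ghrelin than in BPH without overlap, and A_44_P454429 is higher. Of all genes, 39.2% had no overlap in this comparison.

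For BPH against sham, 0 of the 6 tested genes were called in limma at an adjusted p under 0.05, where 4.33% of all genes were called (847 of 19552). At an unadjusted p under 0.05 there was 1 of 6 (Fgfr3), where all genes gave 26.5%, and 1 of 6 had no overlap between groups, where all genes gave 31.3%. For BPH+ghrelin against BPH, 0 of 6 were called in limma against 1.48% of all genes (293 of 19749), 1 of 6 (Fgf9) had an unadjusted p under 0.05 against 21.1%, and 2 of 6 (Fgf7 and Fgfr3) had no overlap against 39.2%. For BPH+ghrelin against sham, 0 of 6 were called in limma against 6.30% of all genes (1210 of 19197), 1 of 6 (Fgf7) had an unadjusted p under 0.05 against 23.7%, and 1 of 6 (Fgf7) had no overlap against 30.4%. These shares are no higher than those of all genes. The median log2 fold changes of the 6 genes were 0.04, -0.33 and -0.11 in these comparisons, and those of all tested genes were 0.04, 0.02 and 0.04. The comparisons share arrays, so that a low or high group enters 2 of them.

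Arrays with the same scan identifier in the scanner header were taken to share a slide, as the labels name no slide. On this basis, BPH and sham arrays were never on the same slide. Slide and group therefore cannot be told apart in this comparison except through the BPH+ghrelin arrays, which were on slides of both. On slide 1, BPH+ghrelin replicate 1 against the 3 BPH arrays gave log2 differences of -1.53 for Fgf9, -0.39 for Fgf7 and -0.27 for Fgfr3. On slide 2, BPH+ghrelin replicates 2 and 3 against sham replicates 1 and 2 gave -0.79 for Fgf7, -0.36 for Fgf9 and 0.23 for Fgfr3. Within slides, the directions of these 3 genes were those over all arrays. Fgf10 gave 0.64 on slide 1 and -0.51 on slide 2, and Fgfr1 gave -0.50 and -0.09.

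Markers of the cell types that make or receive FGF signals varied between arrays as well. Fibroblast markers (10 of 10 on the array) summed to a linear signal of 13303 to 24415 in sham, 20079.6 to 30111 in BPH and 18827 to 26102 in BPH+ghrelin, with overlap in all groups. In BPH+ghrelin against BPH, however, 8 of the 9 fibroblast markers tested had a lower mean (2 of 9 called lower), with a median log2 fold change of -0.32, where 1.48% of all genes were called and their median was 0.02. Smooth muscle markers (9 of 10 on the array) summed to 18465 to 32255 in sham, 18679 to 35634 in BPH and 17829.6 to 19844 in BPH+ghrelin. All 9 smooth muscle markers had a lower mean in BPH+ghrelin than in BPH (1 of 9 called), with a median log2 fold change of -0.49, to be read against the same share and median of all genes. Luminal epithelium markers (10 of 10) summed to 90394 to 134292 in sham, 99496 to 167759 in BPH and 92376 to 123351 in BPH+ghrelin. Of these 10, 2 were called higher and 1 lower in BPH against sham, where 4.33% of all genes were called. In BPH+ghrelin, 1 was called higher against BPH, and 1 higher and 1 lower against sham (1.48% and 6.30% of all genes). The summed signal of basal epithelium markers (4 of 6) was higher in both androgen-treated groups without overlap, with 8572 to 8882 in sham, 11729.6 to 12794 in BPH and 12528 to 14159 in BPH+ghrelin. Of the single markers, 4 of 4 had a higher mean in BPH than in sham (1 called), and in BPH+ghrelin 3 of 4 had a higher (1 called) and 1 a lower mean than in sham, where 4.33% and 6.30% of all genes were called. Nerve and Schwann markers (7 of 7) summed to 2679 to 4822 in sham, 3249 to 5869 in BPH and 6400.02 to 8628 in BPH+ghrelin, with no overlap of BPH+ghrelin with either group. The single markers went both ways, with 5 of 7 higher and 2 lower in BPH+ghrelin than in BPH, a median log2 fold change of 0.15, 1 of 7 without overlap (39.2% of all genes) and none called in limma (1 at an unadjusted p under 0.05). Immune markers (9 of 10) summed to 1129 to 1200.4 in sham, 951 to 1235 in BPH and 796 to 838 in BPH+ghrelin, which lay below both groups. Of the immune markers tested, 4 of 5 had a lower mean in BPH+ghrelin against BPH (1 called) and 4 of 4 against sham (2 called). Endothelium markers (5 of 6) summed to 1161 to 1467 in sham, 842 to 1309 in BPH and 772 to 903 in BPH+ghrelin, and 4 of 4 tested were lower in BPH+ghrelin than in sham (1 called). Fat markers (6 of 7) summed to 279 to 4821 in sham, 1399 to 3554 in BPH and 257 to 4528 in BPH+ghrelin. The part of these markers in the FGF values was not tested.

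**Figure D4:**
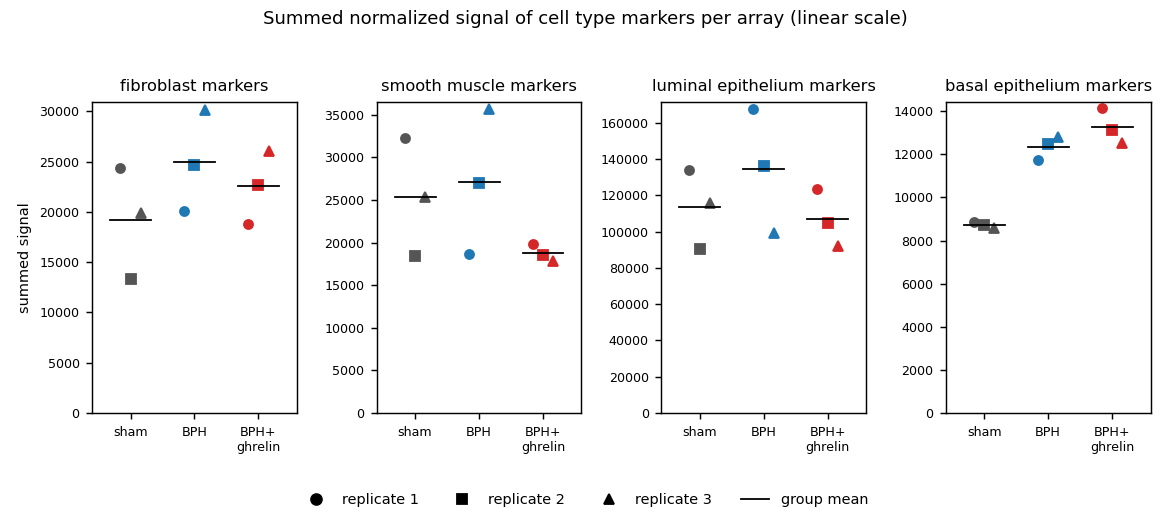
Summed normalized signal (linear scale, vertical axes from 0) of fibroblast, smooth muscle, luminal epithelium and basal epithelium markers on each array, with symbols for replicates and lines for group means. Smooth muscle sums spread from 18679 to 35634 in BPH and from 17829.6 to 19844 in BPH+ghrelin, and basal sums are higher in both androgen-treated groups than in sham.

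Around the ligands and receptors, 105 further genes of the pathway were listed, 93 of which had a probe. In BPH against sham, 4 of 76 tested were called (1 higher, 3 lower, 5.26%, against 4.33% of all genes). In BPH+ghrelin against BPH, 1 of 78 was called (lower, 1.28%, against 1.48%), and in BPH+ghrelin against sham, 7 of 75 were called (4 higher, 3 lower, 9.33%, against 6.30%). With the in-between array of each group left out, none of these calls was kept (adjusted p = 0.198 to 0.949 in limma), while each direction was kept. With slide as a block, 1 of the 12 calls was kept, that of Ncam1 in BPH+ghrelin against sham (adjusted p = 0.0302 in limma), and the other adjusted p-values were 0.0696 to 0.856. With normexp, 10 of the 12 calls and all 12 directions were kept.

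Among binding proteins and co-receptors, Ncam1 and Fgfbp1 had the lowest adjusted p-values of the pathway genes in BPH+ghrelin against sham. Fgfbp1, a secreted carrier that releases FGF ligands from heparan sulfate in the matrix, had levels of 5.84, 4.22 and 5.54 in sham, 6.62, 6.77 and 7.18 in BPH, and 8.63, 8.54 and 8.33 in BPH+ghrelin. The 3 groups did not overlap and stood in the order sham, BPH, BPH+ghrelin. Fgfbp1 rose 9.83-fold in BPH+ghrelin against sham (log2 fold change 3.30, SE 0.38, adjusted p = 0.00365 in limma), a call that was kept with each array left out in turn and lost with slide as a block (adjusted p = 0.0696). With normexp the log2 fold change was 1.96 (adjusted p = 0.000393). The single steps did not pass, with 1.65 (SE 0.38, adjusted p = 0.0532) for BPH against sham and 1.64 (SE 0.38, adjusted p = 0.0767) for BPH+ghrelin against BPH. Both lay near the threshold, and the first was called under 6 of 19 alternatives and the second under 2 of 19. With normexp both were called (0.76, adjusted p = 0.0278, and 1.20, adjusted p = 0.015), and with slide as a block neither was (adjusted p = 0.78 and 0.413).

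Ncam1, an adhesion molecule that can bind FGF receptors, had levels of 9.32, 9.48 and 9.40 in sham, 7.58, 7.26 and 6.71 in BPH, and 6.95, 6.70 and 6.65 in BPH+ghrelin. All 6 arrays of androgen-treated rats lay below the sham arrays, and both androgen-treated groups overlapped. Ncam1 fell 4.64-fold in BPH (log2 fold change -2.21, SE 0.22, adjusted p = 0.00251 in limma) and 6.20-fold in BPH+ghrelin (-2.63, SE 0.21, adjusted p = 0.000738) against sham, and both calls were kept with each array left out in turn. With slide as a block, the call in BPH was lost (-2.49, adjusted p = 0.308) and the call in BPH+ghrelin was kept (adjusted p = 0.0302). With normexp, both calls were kept at -1.69 and -1.94. Gpc2, a glypican that carries heparan sulfate chains, had levels of 6.46, 9.33 and 7.97 in sham, 7.16, 6.38 and 4.22 in BPH, and 3.78, 4.36 and 4.37 in BPH+ghrelin. It fell in BPH+ghrelin against sham (-3.75, SE 0.86, adjusted p = 0.0425 in limma), but the call was kept in only 1 of 6 fits with an array left out, the one without sham replicate 1 (adjusted p = 0.0270 to 0.135). With normexp it was -1.78, and the call was lost (adjusted p = 0.071).

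Of 13 enzymes tested that build or edit heparan sulfate, 1 was called in BPH against sham (lower), 1 in BPH+ghrelin against BPH (lower) and 2 in BPH+ghrelin against sham (1 higher, 1 lower), where 4.33%, 1.48% and 6.30% of all genes were called. Sulf1, a secreted sulfatase that removes sulfate groups from heparan sulfate and thereby weakens FGF binding, had levels of 6.07, 5.67 and 5.77 in sham, 6.19, 5.92 and 5.70 in BPH, and 4.83, 4.60 and 4.60 in BPH+ghrelin. Sham and BPH overlapped, and BPH+ghrelin lay below both. Sulf1 was the only pathway gene called in BPH+ghrelin against BPH, where it fell 2.39-fold (log2 fold change -1.26, SE 0.17, adjusted p = 0.0240 in limma). This call was kept in 1 of 6 fits with an array left out, the one without BPH replicate 3 (adjusted p = 0.0273 to 0.146), and the values ranged from -1.37 to -1.12. It was also lost with slide as a block (-1.11, adjusted p = 0.272). Against sham, Sulf1 fell 2.24-fold in BPH+ghrelin (-1.16, SE 0.17, adjusted p = 0.00968 in limma), and of the fits with an array left out the call was lost in the one without BPH+ghrelin replicate 2 (adjusted p = 0.0617). It was lost with slide as a block as well (-1.27, adjusted p = 0.109). With normexp, Sulf1 gave -0.44 against BPH (adjusted p = 0.0453) and -0.41 against sham (adjusted p = 0.0328), both called.

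Ext1, which elongates the heparan sulfate chain, had levels of 8.33, 8.47 and 8.47 in sham, 8.32, 8.46 and 8.94 in BPH, and 9.29, 9.15 and 9.13 in BPH+ghrelin. It rose in BPH+ghrelin against sham (log2 fold change 0.77, SE 0.17, adjusted p = 0.0388 in limma), with the call kept in 1 of 6 fits with an array left out, the one without sham replicate 2 (adjusted p = 0.0451 to 0.136). Extl1, a related transferase, stood at 6.86, 7.90 and 7.16 in sham, 6.29, 6.16 and 6.02 in BPH and 6.46, 6.60 and 6.92 in BPH+ghrelin. It fell in BPH against sham (-1.15, SE 0.26, adjusted p = 0.0496 in limma), and 2 of 6 calls were kept when an array was left out (adjusted p = 0.0202 to 0.181). With normexp it gave -0.72, and the call was lost (adjusted p = 0.0569).

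**Figure D5:**
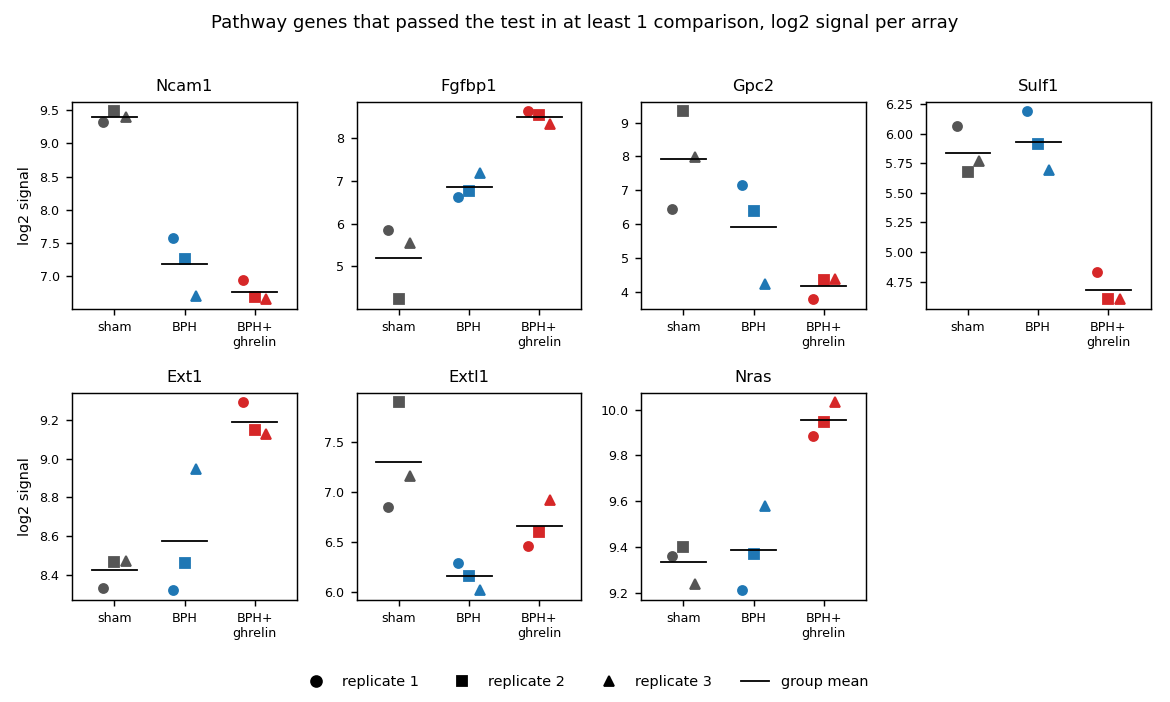
Quantile-normalized log2 signal (vertical axes, which differ between panels and do not start at 0) on each array for 7 pathway genes that passed the test in at least 1 comparison, with symbols for replicates and lines for group means. Fgfbp1 is lowest in sham (4.22 to 5.84), between in BPH (6.62 to 7.18) and highest in BPH+ghrelin (8.33 to 8.63), Ncam1 is lower in both androgen-treated groups, and Sulf1 is lower in BPH+ghrelin.

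Of the 19 signal transducers tested in BPH against sham, 15 had a higher and 4 a lower mean (median log2 fold change 0.25, against 0.04 for all genes), and 1 of 19 was called, where all genes gave 4.33%. None of 19 was called in BPH+ghrelin against BPH (3 at an unadjusted p under 0.05 in limma, with 1.48% and 21.1% for all genes), and 2 of 18 were called in BPH+ghrelin against sham (all genes 6.30%). The small GTPase Nras rose 1.54-fold in BPH+ghrelin against sham (0.62, SE 0.13, adjusted p = 0.0327 in limma), from 9.36, 9.40 and 9.24 to 9.88, 9.94 and 10.03, and 2 of 6 calls were kept when an array was left out (adjusted p = 0.0310 to 0.135).

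Feedback inhibitors and target genes, which often follow the strength of FGF signalling, held no call in limma (0 of 8 and 0 of 5 tested in each comparison, with 1, 0 and 1 inhibitors and 1, 0 and 2 targets at an unadjusted p under 0.05). Of all genes, 4.33%, 1.48% and 6.30% were called in these comparisons, and 26.5%, 21.1% and 23.7% had an unadjusted p under 0.05. Dusp6, a phosphatase that acts on kinases of this cascade, stood at 9.16, 10.03 and 9.44 in sham, 8.88, 8.86 and 8.87 in BPH, and 9.09, 9.07 and 9.14 in BPH+ghrelin. The BPH arrays were the lowest (log2 fold change -0.68 against sham, adjusted p = 0.0939 in limma). With an array left out in turn, the value ranged from -0.87 to -0.43 (adjusted p = 0.0261 to 0.258). Dusp6 was called in 1 of 6 such fits, the one without sham replicate 1, in which 3082 genes were called against 847 with all arrays. Of the inhibitors in BPH+ghrelin against BPH, 6 of 8 had a higher and 2 a lower mean (median log2 fold change 0.28, all genes 0.02). Dusp4 stood at 4.67, 6.41 and 5.36 in sham, 4.98, 4.93 and 4.77 in BPH and 5.09, 5.30 and 5.77 in BPH+ghrelin (adjusted p = 0.495 against BPH). Spry2, which was lower, stood at 5.17, 2.83 and 4.65, at 4.85, 4.75 and 4.41, and at 4.23, 3.78 and 2.92 (adjusted p = 0.342). In BPH+ghrelin only 2 of 3 arrays measured Spry2 above background, so that the size of its fall is uncertain. The target Etv5 stood at 7.64, 6.64 and 7.27 in sham, 7.91, 7.91 and 7.72 in BPH, and 7.53, 7.44 and 7.39 in BPH+ghrelin, with the BPH arrays the highest (adjusted p = 0.128 against sham, and 0.370 for BPH+ghrelin against BPH). Against sham, its log2 fold change in BPH was 0.66, and 0.39 to 0.89 with an array left out in turn. Etv5 was called in 1 of 6 such fits, again the one without sham replicate 1 (adjusted p = 0.0302 to 0.313).

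Of the 10 regulators that set which Fgfr2 exon is used, 1 was called in BPH against sham and 0 in both other comparisons in limma (2 of 10 at an unadjusted p under 0.05 in each), counts to be read against the same shares of all genes. Hnrnpa1 fell on its main probe (log2 fold change -0.52, adjusted p = 0.0370 in limma), but its other probe gave 0.34, so that no direction is given for this gene. Esrp2, which promotes the epithelial form of Fgfr2, stood at 5.62, 4.20 and 5.28 in sham, 6.05, 6.11 and 5.95 in BPH and 5.73, 5.43 and 5.21 in BPH+ghrelin. BPH against sham gave a log2 fold change of 1.00 (adjusted p = 0.115 in limma). With an array left out in turn, the value ranged from 0.59 to 1.30 (adjusted p = 0.0353 to 0.288). Only 1 of 6 such fits called Esrp2, the one without sham replicate 1, in which 3082 genes were called against 847 with all arrays. Ptbp2, which acts on the alternative exons of many genes, stood at 6.15, 4.64 and 5.84 in sham, 6.32, 5.74 and 5.72 in BPH and 4.95, 4.77 and 4.77 in BPH+ghrelin. Against BPH it gave -1.10 (adjusted p = 0.152 in limma). Only 1 of 19 alternatives called it, the 6 arrays compared only (adjusted p = 0.0279), where 2101 genes were called against 293. With an array left out in turn, Ptbp2 was not called (adjusted p = 0.17 to 0.37), and normexp gave -0.39 (adjusted p = 0.164). Of the other FGF ligands, 6 were tested in BPH against sham, 8 in BPH+ghrelin against BPH and 6 in BPH+ghrelin against sham, and 0 were called in limma, with 2, 1 and 2 at an unadjusted p under 0.05, to be read against the shares of all genes given above. Fgf13, which stays inside cells and binds sodium channels, stood at 11.31, 11.01 and 11.17 in sham, 11.52, 11.63 and 11.73 in BPH and 11.41, 11.48 and 11.57 in BPH+ghrelin (adjusted p = 0.0735 for BPH against sham). It was called under 3 of 19 alternatives, namely with normexp (0.46, adjusted p = 0.0367), with the mean of its probes (0.64, adjusted p = 0.0328) and without sham replicate 1 (0.54, adjusted p = 0.0374). With an array left out in turn, Fgf13 gave 0.39 to 0.54 (adjusted p = 0.0374 to 0.236).

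As a description, the genes whose levels followed each FGF gene most closely over the 9 arrays were taken from 9691 genes well above background on all arrays. For Fgf9 these were Rgcc (Pearson r = 0.99), Tgfbi (0.97) and C2 (0.97), and for Fgfr3 they were Cd82, Prmt3 and Arf6 (0.98 each). Fgf7 was followed by Slc23a1 (0.95), Prph (0.93) and Ccdc65 (0.93), Fgf10 by Unc13d (0.90), Zfp414 (0.90) and Thoc2 (0.86), and Fgfr1 by Ada (0.90), Iscu (0.89) and Trir (0.86). For Fgfr2 the highest values were lower, with Dpf1 (0.78), Krtap10l1 (0.78) and Bicd1 (0.77). These correlations mix differences between groups with differences between arrays of a group, and all genes share the same 9 arrays and their labelling.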

How the data were processed

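Gene expression was measured in rat prostates on 9 one-colour arrays (Agilent), 3 each of sham, BPH and BPH+ghrelin as named by the labels. The intensities deposited by the authors come from Feature Extraction 11.0.1.1, which subtracts background, and were not normalized between arrays. A matrix of log2 values deposited by the authors, quantile normalized in GeneSpring, was used as an alternative only. Here, spots marked as outliers were removed, spots of a probe were averaged, 11 of 30367 probes lacking a spot on some array were dropped, and log2 intensities were quantile normalized over 9 arrays. Probes were named through RefSeq accessions (GRCr8, names and promoters), which gave 59.3% of probes a symbol. Probes without a symbol were counted as genes under their identifier on the array, so that all genes tested include them. The array annotation belongs to another build, and coordinates are given only for the promoters shown, on GRCr8.

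Probes entered a comparison if 3 or more of its 6 arrays were well above background, and genes were represented by the entered probe with the highest mean. Groups were compared with limma 3.58.1 (R 4.3.3; lmFit, eBayes, 3 groups) and Benjamini-Hochberg adjustment over all genes, and a call is an adjusted p under 0.05. With 3 arrays per group, the smallest two-sided p of exact permutation is 0.1. The scripts were tested on simulated data. The members and lists were chosen with earlier results of these data known. Named were all members, called pathway genes, those with the largest rise or fall without overlap in each list, and the 3 genes most like each member. Not all genes named by this rule are printed, and the result for 1 called pathway gene is not reported here. Alternatives were scaling to the 75th percentile, normexp (offset 50), other filters, the mean of probes, other probes, replicate or slide as a block, 6 arrays, the matrix, eBayes with trend and robust, and leaving out arrays.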

Additional observations from a re-analysis of the deposited data

How the results depend on the processing

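Calls among the FGF ligands and receptors stayed at 0 in each comparison, except that leaving out arrays in turn gave 0 to 1 in BPH against sham (Fgfr3) and 0 to 1 in BPH+ghrelin against BPH (Fgf9). Of 356 tested values of these genes under the alternatives, 2 were called, and 26 values turned direction. For Fgf7, Fgf9 and Fgfr3 no direction turned in any comparison, but the sizes shrank with normexp, from -0.66 to -0.071 for Fgf7 in BPH+ghrelin against sham, from -1.17 to -0.22 for Fgf9 in BPH+ghrelin against BPH and from 0.71 to 0.30 for Fgfr3 in BPH against sham. Fgfr1 in BPH against sham turned to -0.059 with the 75th percentile, -0.012 with normexp, -0.14 with the mean of probes, -0.37 with the other probe and -0.057 without the in-between arrays, and ranged from -0.048 to 0.36 with an array left out. Fgfr2 in BPH against sham turned to 0.00382 with normexp, 0.17 with the mean of probes, 0.081 with slide as a block, 0.21 and 0.73 with other probes and 0.060 without the in-between arrays (range -0.081 to 0.048 with an array left out). In BPH+ghrelin against BPH, the main Fgfr2 probe ranged from -0.11 to 0.015 with an array left out. Another Fgfr2 probe gave 0.65 in this comparison and 0.40 in BPH+ghrelin against sham. Fgf10 ranged from -0.37 to 0.088, -0.19 to 0.33 and -0.39 to 0.18 with an array left out in the 3 comparisons, with 0.00800 in BPH+ghrelin against sham without the in-between arrays. Fgfr1 in BPH+ghrelin against sham ranged from -0.26 to 0.15, and Frs3 in BPH against sham turned to 0.12 with slide as a block. The causes were not tested.

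Counts of genes called depended more on the setting. For BPH against sham (847), BPH+ghrelin against BPH (293) and BPH+ghrelin against sham (1210), limma called 533, 195 and 803 without the filter, 2, 2 and 84 with slide as a block, and 3, 0 and 2 without the in-between arrays, where 1182, 831 and 1338 genes had an unadjusted p under 0.05 and fewer arrays remained. With the 6 arrays compared only, 181 and 2101 were called in the first 2 comparisons, and with the 75th percentile 515 in BPH+ghrelin against BPH. With an array left out, the counts ranged from 119 to 3082, from 3 to 400 and from 224 to 1921.

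With the replicate number as a block, 243, 17 and 461 genes and 0 FGF genes were called, and 5 of the 12 pathway calls were kept (Sulf1 in BPH+ghrelin against BPH was lost with an adjusted p of 0.0558). Deviations of same-numbered arrays correlated at -0.18 to 0.38, so the numbers were not taken to pair the samples. The number of arrays limits the precision, and Fgf2, Fgf18 and Fgfr4 could not be measured above background.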
